A study of Mus musculus with 6 samples.

Results

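The proteasome genes described here were the genes whose symbol in the deposited tables begins with Psma, Psmb, Psmc, Psmd, Psme, Psmf or Psmg, and they numbered 47 of the 28892 genes on the array. RNA of luminal uterine epithelium, the cell layer that faces the uterine cavity, was measured at 3.5 days post coitum (dpc) on 6 arrays of 1 Illumina mouse bead chip. The CKO group (arrays D, E and F) came from females homozygous for a floxed allele of Alk3, now named Bmpr1a, a receptor for bone morphogenetic proteins, that also carried 1 copy of a Pgr-cre knock-in, which makes Cre recombinase from the progesterone receptor locus. The Control group (arrays A, B and C) was labelled only as Control, without an allele. Both groups had a hybrid background of C57BL/6J and 129S5/SvEvBrd. Cre driven by this locus is made wherever the progesterone receptor is made, so the deletion is not limited to epithelium. Whether the arrays hold RNA of different animals is not stated, and the spread behind each p-value is that between these samples and may be technical.

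The proteasome is the protease that degrades proteins marked with ubiquitin. Its barrel-shaped 20S core has outer rings of alpha subunits (Psma genes) and inner rings of beta subunits (Psmb genes), and the proteolytic sites lie on Psmb5, Psmb6 and Psmb7. The 19S regulatory particle on its ends holds a ring of ATPases (Psmc genes) that unfolds the substrate, and non-ATPase subunits (Psmd genes) that bind ubiquitin and remove it. In cells exposed to interferon gamma, and in leukocytes, Psmb8, Psmb9 and Psmb10 replace Psmb5, Psmb6 and Psmb7 to form the immunoproteasome, which cuts peptides for presentation on MHC class I, and Psme1 and Psme2 form an activator ring that is induced with them. In progesterone-responsive tissue the proteasome also degrades the hormone-bound progesterone receptor.

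No proteasome gene passed the test between CKO and Control. Of the 47 genes, 41 were above background on at least 3 arrays and could be tested, and 0 of these passed in either direction by limma's adjusted p at 0.05. Over all 11940 genes tested, 0.0168% were called higher and 0% lower. The differences of the 41 genes, CKO minus Control on the log2 scale, ran from -0.55 to 0.45 with a median of 0.01, against a median of -0.01 over all genes tested. They were positive for 21 genes and negative for 20. At an unadjusted limma p under 0.05 stood 1 of 41 genes, or 2.44%, against 4.72% of all genes. All 3 CKO arrays lay above all 3 Control arrays for 2 proteasome genes, Psme3 and Psmb7, where 5.64% of all genes did so. All 3 CKO arrays lay below for another 2, Psmd14 and Psmd8, where 5.01% of all genes did so. These shares lie near those of all genes. The 95% confidence interval lay within a 2-fold change in either direction for 34 of the 41 genes (82.9%), and for 69.2% of all genes tested. A missed threshold does not show that the groups were alike, and these intervals state how large a difference the arrays still allow.

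**Figure D1:**
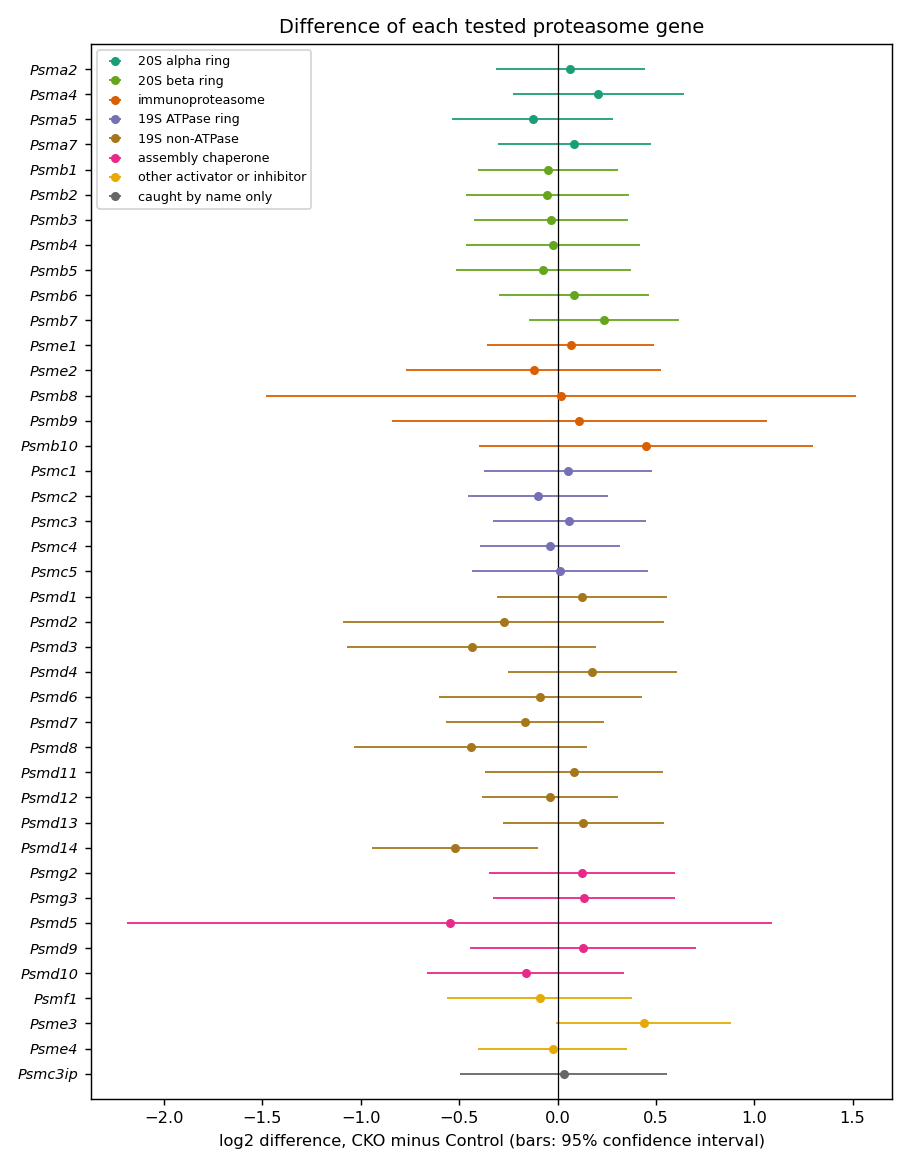
Log2 difference, CKO minus Control, of the 41 tested proteasome genes (points) with the 95% confidence interval (bars, limma, 3 arrays a group), ordered and coloured by class. The interval lies within 1 log2 unit of 0 for 34 genes, and the widest bars belong to Psmd5, Psmb8, Psmb9 and Psmb10.

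The arrays were close in depth. Raw intensity had a median of 79.7 to 87.6, between 16620 and 17536 probes stood above background (a detection p-value below 0.05), and a probe was read from a median of 39 to 42 beads. Precision is limited by how few arrays there are. Each group sat on its own stretch of chip positions, so position and genotype cannot be told apart. Bmpr1a had normalised log2 signals of 8.86, 8.25 and 8.67 on CKO arrays D, E and F, against 9.26, 9.35 and 8.97 on Control arrays A, B and C (difference -0.60, limma adjusted p 0.976). The groups did not overlap, and whether the probe lies in the deleted exon was not tested. Of 8 epithelial markers, 7 were above background, among them Krt8, Krt18, Cldn3, Cldn4 and Cdh1, and Epcam was not. Of 10 stromal markers on the array 8 were above background, Dcn the brightest, and Hoxa11 and Pdgfra were not. The mean deviation of these 8 from their 6-array mean was 1.03, 0.75 and -0.92 on CKO arrays D, E and F, against -0.42, -0.32 and -0.12 on Control arrays A, B and C. Their summed linear signal was 6190, 2718 and 895 on the CKO arrays, against 2465, 2001 and 2700 on the Control arrays. Their part in the results below was not tested. Fewer cells of a type and less RNA per cell cannot be told apart in such samples.

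Arrays E, C and D lay further from the other arrays than A, B and F did. On array E 12.8% of all genes lay more than 2-fold from the mean of the other arrays, on Control array C 7.58%, on array D 5.99% and on the other arrays 1.75% to 3.22%. Among the 41 proteasome genes, those this far away were Psmb8, Psmd2 and Psmd5 on D, Psmb8 on E, and Psmb9 and Psmb10 on C. These names were chosen after their values were seen.

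**Figure D2:**
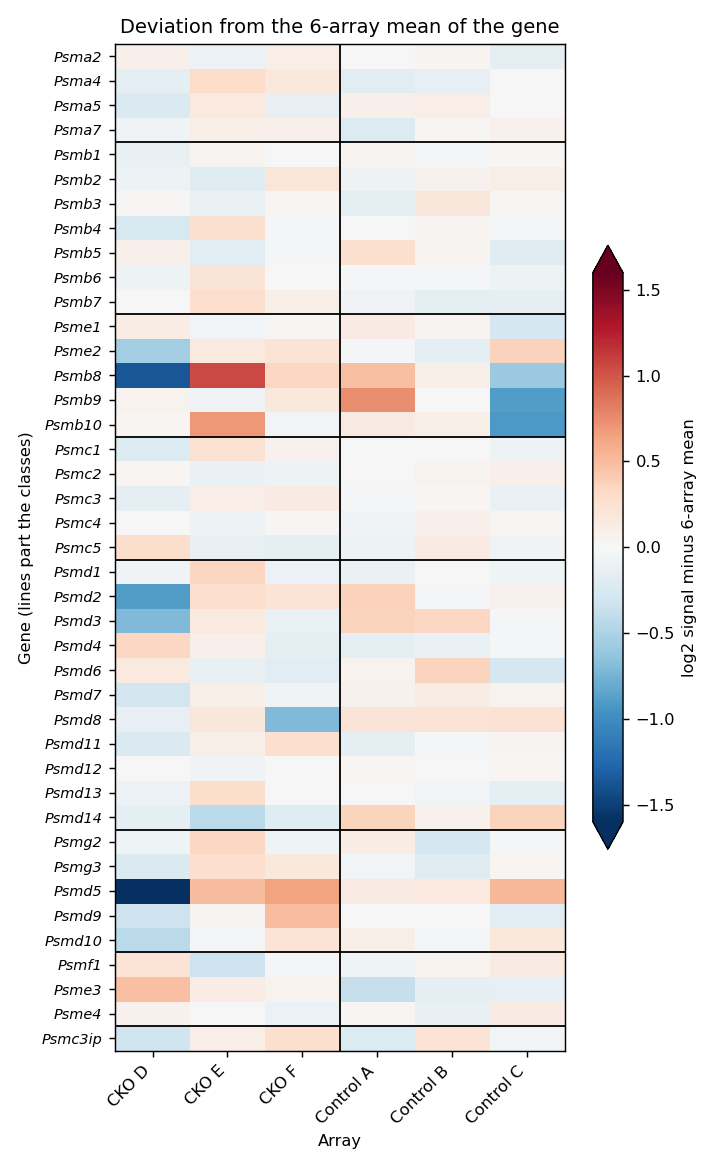
Deviation of each tested proteasome gene's log2 signal from its own 6-array mean (colour, log2 units), on CKO arrays D, E and F and then Control arrays A, B and C, with lines between classes. Most 20S and 19S rows are pale, strong colours lie in Psmb8, Psmb9, Psmb10 and Psmd5 and in the 19S genes Psmd2, Psmd3 and Psmd8, and the value of Psmd5 on array D lies beyond the colour range.

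The rings of the 20S core varied little. Of 8 listed alpha subunit genes 4 were tested, and their differences ran from -0.13 (Psma5) to 0.21 (Psma4). Psma4 had log2 signals of 11.46, 11.89 and 11.77 on CKO arrays D, E and F, against 11.42, 11.47 and 11.61 on Control arrays A, B and C. Psma5 had 12.62, 13.01 and 12.72 on the CKO arrays, against 12.93, 12.95 and 12.85 on the Control arrays. In both genes the groups overlapped. Without array D Psma5 differed by -0.045, and without array E Psma4 differed by 0.12. Psma7 had 11.76, 11.91 and 11.89 on the CKO arrays, against 11.59, 11.83 and 11.87 on the Control arrays. Its difference was 0.09 and that of its other tested probe -0.09, so its probes pointed opposite ways. Psma2 differed by 0.06. Psma1, Psma3 and Psma6, which are constitutive ring subunits, and Psma8, a form known from male germ cells, were below background on all 6 arrays. Each of them had 1 probe, so only a bound on its signal was measured.

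All 7 constitutive beta subunit genes were tested, with differences from -0.07 to 0.24. Psmb5 carries the chymotrypsin-like site and had log2 signals of 9.32, 9.06 and 9.20 on CKO arrays D, E and F, against 9.49, 9.28 and 9.03 on Control arrays A, B and C. Psmb6 carries the caspase-like site and had 12.03, 12.33 and 12.12 on the CKO arrays, against 12.09, 12.10 and 12.03 on the Control arrays. The groups overlapped in both. Psmb7 carries the trypsin-like site and had 11.88, 12.16 and 11.99 on the CKO arrays, against 11.83, 11.75 and 11.74 on the Control arrays. Every CKO array of Psmb7 lay above every Control array (difference 0.24, 95% confidence interval -0.14 to 0.62), and the gene did not pass. Its 3 other probes differed by -0.03, 0.17 and -0.04 with groups that overlapped. Psmb1, Psmb2, Psmb3 and Psmb4, the beta subunits without a proteolytic site in the mature core, differed by -0.05, -0.05, -0.03 and -0.02. Psmb11, the catalytic subunit of the thymus, was below background on all 6 arrays.

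The immunoproteasome genes were present in both groups and varied among arrays of the same group. All 5 were above background on every array. None passed, 4 of 5 differences were positive, and the median difference was 0.07. The median was -0.031 with median scaling and -0.055 without Control array C, and it was 0.26 without Control array A, so its sign was not stable. Psmb8 had log2 signals of 9.49, 11.92 and 11.19 on CKO arrays D, E and F, against 11.34, 10.95 and 10.26 on Control arrays A, B and C. Array E held its highest value and array D its lowest, so the CKO arrays span all Control arrays. The CKO mean was 10.87 ± 1.25 (SD, n = 3) and the Control mean 10.85 ± 0.54 (SD, n = 3), a difference of 0.02 (95% confidence interval -1.48 to 1.52). The other probe of Psmb8 ordered the arrays the same way within each group, with 6.96, 8.40 and 7.65 on the CKO arrays, against 8.24, 7.49 and 6.98 on the Control arrays. Without array D the difference of Psmb8 was 0.71, and without array E it was -0.51.

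Psmb9 had 8.98, 8.87 and 9.09 on CKO arrays D, E and F, against 9.66, 8.92 and 8.02 on Control arrays A, B and C. Here the CKO arrays lay close together and the Control arrays spread on both sides of them. The difference was 0.11 (95% confidence interval -0.84 to 1.06). It was 0.51 without Control array A and -0.31 without Control array C. Psmb10 had 10.14, 10.81 and 10.07 on the CKO arrays, against 10.26, 10.22 and 9.20 on the Control arrays. Array C alone lay below the rest. The difference of 0.45 (95% confidence interval -0.40 to 1.30) was the highest of any tested proteasome gene, and it was 0.10 without array C and 0.22 without array E. The other probe of Psmb10 gave 0.46 and also had its lowest value on C and its highest on E.

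The activator genes Psme1 and Psme2 were steadier than the catalytic subunits. Psme1 had 12.57, 12.40 and 12.47 on CKO arrays D, E and F, against 12.58, 12.48 and 12.17 on Control arrays A, B and C. Psme2 had 9.03, 9.73 and 9.80 on the CKO arrays, against 9.55, 9.42 and 9.95 on the Control arrays. The groups overlapped in both, with differences of 0.07 and -0.12. The other tested probe of Psme1 differed by -0.02. Psme2 changed sign without array D, to 0.13.

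**Figure D3:**
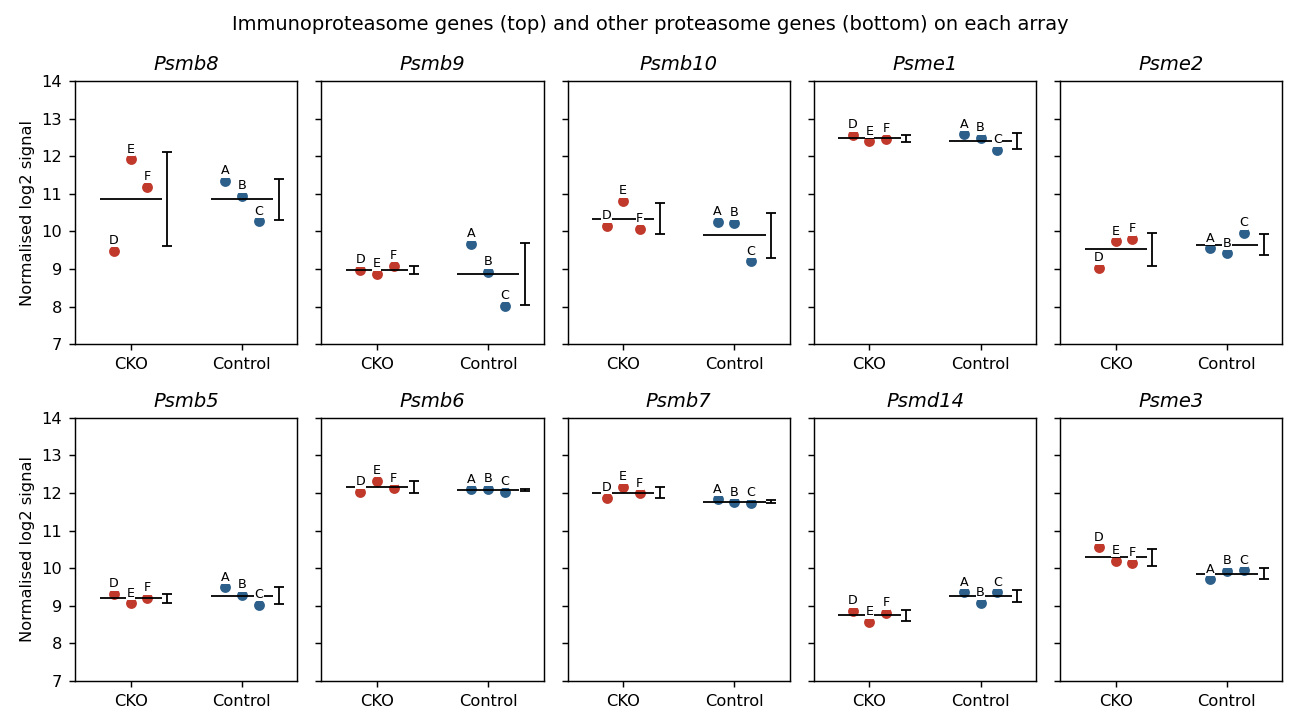
Normalised log2 signal on each array (points with the array's letter) for the 5 immunoproteasome genes (top) and Psmb5, Psmb6, Psmb7, Psmd14 and Psme3 (bottom), CKO left of Control, with the group mean (line) and SD (bar, n = 3). Psmb8, Psmb9 and Psmb10 spread within groups, Psmd14 lies lower and Psme3 and Psmb7 higher on all CKO arrays, and signals are not comparable between genes.

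Each inducible subunit was set against the constitutive subunit that it replaces, as the change between groups of their log2 difference within an array. CKO minus Control was 0.09 for Psmb8 against Psmb5 (exact two-sided permutation p 0.9), 0.03 for Psmb9 against Psmb6 (exact p 1) and 0.21 for Psmb10 against Psmb7 (exact p 0.7). Adjusted over these 3 comparisons each p was 1, and with 3 against 3 arrays no p can go below 0.1. The SD of this quantity was 1.37 in CKO and 0.32 in Control for the comparison with Psmb5. For the comparison with Psmb6 it was 0.24 in CKO and 0.79 in Control, and for that with Psmb7 it was 0.29 in CKO and 0.57 in Control (n = 3 each). The groups overlapped in all 3 comparisons. Because its p cannot go below 0.1, the permutation test could not decide whether the balance of these RNAs differed between the groups. Replacement of subunits in the protein particle was not tested.

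The classes differed in how far arrays of the same group lay apart. The median SD within groups was 0.51 for the 5 immunoproteasome genes, 0.15 for the 27 tested genes of the 20S and 19S particles, and 0.30 for all genes tested. The range over the 6 arrays exceeded 1 log2 unit for 3 of 5 immunoproteasome genes, for 2 of 27 genes of the 20S and 19S particles, and for 36.8% of all genes tested. Part of the low spread goes with signal. Among genes with a mean log2 signal of 8 or more the median SD was 0.17 for 35 proteasome genes and 0.26 for 5799 genes. No test of these differences was made. The steadiest was Psmd12, a scaffold subunit of the 19S lid, with 10.93, 10.87 and 10.92 on CKO arrays D, E and F, against 10.96, 10.93 and 10.95 on Control arrays A, B and C.

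**Figure D4:**
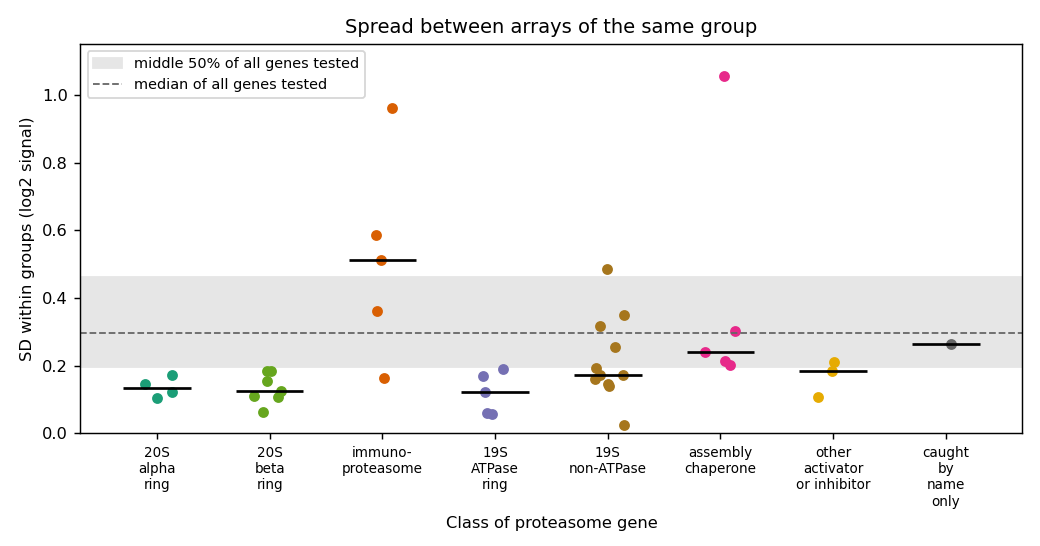
SD of the log2 signal between arrays of the same group for each tested proteasome gene (points), by class, with the class median (line), the median of all 11940 genes (dashed) and their middle 50% (grey band). The 20S and 19S ATPase genes lie below the dashed line, and Psmb8, Psmb9, Psmb10 and the assembly chaperone Psmd5 lie above the band, as does the 19S gene Psmd2.

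The mean deviation of Psmb8, Psmb9 and Psmb10 from their 6-array means was -0.43, 0.57 and 0.15 on CKO arrays D, E and F, against 0.45, 0.06 and -0.80 on Control arrays A, B and C. For the 20S and 19S genes the same quantity was -0.11, 0.06 and -0.02 on the CKO arrays, against 0.02, 0.05 and -0.01 on the Control arrays. A mean over 27 genes varies less than a mean over 3, so these lines are not a like comparison. Of the 20S and 19S genes, Psmd2 ranged over 1.26 and Psmd3 over 1.07 log2 units across the arrays. Because leukocytes make immunoproteasome, markers of leukocytes were read beside them. Of 13 such genes on the array, 7 were above background, and Ptprc, Adgre1, Cd3e, Cd3g, Itgam and Ms4a1 were not. Their mean deviation was -0.32, -0.11 and 0.22 on the CKO arrays, against -0.41, 0.43 and 0.19 on the Control arrays. Mean deviation and summed signal ordered the Control arrays differently, since Laptm5 alone makes up most of the sum on A and B. The sum was 2219, 2937 and 2776 on CKO arrays D, E and F, against 6283, 6552 and 3073 on Control arrays A, B and C. Psmb8, Psmb9 and Psmb10 were lowest among the Control arrays on C. Of the 7 leukocyte markers only Laptm5 was too, with 12.51, 12.39 and 10.49 on A, B and C. Cd52 (7.10, 9.26 and 10.02) and Lyz2 (6.16, 7.31 and 8.21) were highest on C, and the rest were lowest on A or B. The mean deviation of 2 tested smooth muscle markers of 6 on the array was 0.22, 0.75 and -1.06 on the CKO arrays, against 1.20, -0.20 and -0.90 on the Control arrays. Among the Control arrays Acta2 was highest on A and lowest on C (10.98, 7.96 and 6.86 on A, B and C). Des varied less and was highest on B (5.58, 5.79 and 5.49). Actg2, Cnn1, Myh11 and Tagln were below background. The mean deviation of 5 tested endothelial markers of 7 was 0.14, 1.13 and -0.55 on the CKO arrays, against -0.10, -0.36 and -0.27 on the Control arrays, highest on E as for Psmb8 and Psmb10. Pecam1 and Tie1 were below background. The part of these markers in the spread of the immunoproteasome genes was not tested.

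Genes for interferon signalling and for peptide loading were read as the neighbours of the immunoproteasome in its pathway. Of 11 tested genes of interferon signalling 0 passed in either direction, and the median difference was 0.15. Irf1, the transcription factor that induces Psmb9 and Tap1, had 10.86, 11.02 and 10.47 on CKO arrays D, E and F, against 11.05, 10.72 and 10.13 on Control arrays A, B and C. In Irf1, as in Psmb8, Psmb9 and Psmb10, array A was the highest and array C the lowest Control array. The difference of Irf1 was 0.15, with groups that overlapped. Ifnar2, a subunit of the type I interferon receptor, lay higher on every CKO array (difference 0.42), and Ifngr1, a subunit of the interferon gamma receptor, lay lower on every CKO array (difference -0.26). Neither passed. Irf9, the partner of the STAT proteins in the response to type I interferon, differed by 0.19.

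Of 10 tested genes of class I peptide loading 0 passed in either direction, and the median difference was 0.01. H2-K1, a heavy chain of MHC class I, had 8.65, 8.33 and 9.22 on CKO arrays D, E and F, against 9.34, 9.72 and 9.51 on Control arrays A, B and C. Each CKO value lay below each Control value (difference -0.79, 95% confidence interval -1.42 to -0.16, limma adjusted p 0.976). Heavy chain genes are alike in sequence, and which of them a probe reports was not tested. H2-D1, another heavy chain, differed by 0.23 with groups that overlapped. Tap1, a subunit of the transporter that carries the peptides into the endoplasmic reticulum, had 6.35, 7.14 and 6.60 on the CKO arrays, against 7.23, 6.79 and 5.84 on the Control arrays. Tap1 had its highest and lowest values on the Control arrays A and C, as Psmb9 did, while the CKO arrays ran in another order. Tap2, the other subunit, differed by 0.39 and Pdia3, a chaperone of the loading complex, by 0.22.

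Psmb9 and Tap1 are neighbours on chromosome 17 and are read in opposite directions from start sites with 225 bases between them. These bases are shown because both genes start beside them. Their order of arrays was the same among the Control arrays and not among the CKO arrays, where E held the lowest value of Psmb9 and the highest of Tap1. They are given in the direction of Psmb9 (GRCm38.p6, chr17:34187331-34187555, minus strand, RefSeq), and the capitals mark a CCAAT box read on the opposite strand, the only one in the window of Psmb9.
Psmb9 and Tap1: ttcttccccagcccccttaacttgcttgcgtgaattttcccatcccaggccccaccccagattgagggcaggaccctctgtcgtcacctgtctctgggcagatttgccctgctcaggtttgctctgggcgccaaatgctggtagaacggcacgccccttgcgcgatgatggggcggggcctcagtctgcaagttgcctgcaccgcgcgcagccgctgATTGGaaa

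RefSeq promoter windows, from 250 bases before to 50 after the start site, matched 39 of the 47 genes (42 windows). They were searched on both strands for motifs of factors known to control the proteasome. The antioxidant response element TGACNNNGC, which Nfe2l1 binds with small Maf proteins to raise proteasome genes together, was in 14.29% of the proteasome windows and in 12.39% of 32851 windows of all genes. The windows with a match belonged to Psmb5, Psmb6, Psmc6, Psmd12, Psmd9 and Psme4. The interferon-stimulated motif GAAANNGAA was in 14.29% of the proteasome windows and in 8.56% of all windows, and among the immunoproteasome genes it was found in Psme1. The STAT motif TTCNNNGAA was in 4.762% of the proteasome windows, in Psmb8 and Psmd2, and in 8.298% of all windows. CCAAT was in 35.71% of the proteasome windows and in 37.41% of all windows. A match is a description of letters and not of a bound site.

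The matches in a pair of constitutive catalytic subunits and in the inducible subunit Psmb8 are shown to set both kinds of promoter side by side. Each is 29 bases long, 5′ to 3′ on the strand of the gene, with the motif in capitals (GRCm38.p6, RefSeq). The stretch of Psmb5 around its match to the antioxidant response element lies at chr14:54618024-54618052 on the minus strand. That of Psmb6 lies at chr11:70525338-70525366 on the plus strand. The stretch of Psmb8 around its match to the STAT motif lies at chr17:34198088-34198116 on the plus strand.
Psmb5: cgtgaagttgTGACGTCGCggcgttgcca
Psmb6: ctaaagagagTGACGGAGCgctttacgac
Psmb8: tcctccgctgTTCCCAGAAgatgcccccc

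Nfe2l1 had log2 signals of 12.05, 12.75 and 11.56 on CKO arrays D, E and F, against 12.14, 11.63 and 11.51 on Control arrays A, B and C. The groups overlapped (difference 0.36, 95% confidence interval -0.45 to 1.17). Of 5 tested genes in its control 0 passed in either direction. Nfe2l2, a related factor, differed by -0.13, Keap1, which holds Nfe2l2 back, by -0.09, and the small Maf protein Mafg by 0.07. The promoter match in Psmb5 and Psmb6 stood beside differences of -0.07 and 0.08 in those genes, smaller than the spread between arrays.

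In the ATPase ring of the 19S particle the brightest probes differed little between the groups. Of its 6 genes 5 were tested, with differences from -0.10 to 0.06 and a median of 0.01. Psmc2 had log2 signals of 12.87, 12.73 and 12.75 on CKO arrays D, E and F, against 12.84, 12.88 and 12.92 on Control arrays A, B and C. Psmc3 had 10.87, 11.13 and 11.15 on the CKO arrays, against 11.00, 11.05 and 10.91 on the Control arrays. The groups overlapped in both genes. Psmc1, Psmc4 and Psmc5 differed by 0.05, -0.04 and 0.01. The dimmer probes of Psmc2, Psmc4 and Psmc5 differed by -0.41, -0.90 and 0.12 with groups that overlapped. Each of these probes had its lowest value on array D. With the mean of their probes Psmc2 differed by -0.26 and Psmc4 by -0.47. Psmc6 had 2 probes, both below background on all 6 arrays. All 5 confidence intervals of the brightest probes lay within a 2-fold change.

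Among the 11 non-ATPase genes of the 19S particle, all tested, 7 differences were negative and 4 positive, with a median of -0.09. Psmd14, the metalloprotease that cuts ubiquitin chains off the substrate, had log2 signals of 8.85, 8.56 and 8.80 on CKO arrays D, E and F, against 9.36, 9.07 and 9.36 on Control arrays A, B and C. It lay lower on every CKO array, by -0.52 (95% confidence interval -0.94 to -0.10), with the smallest unadjusted limma p of the proteasome genes, 0.0225, and an adjusted p of 0.976. The other probe of Psmd14 did not show this, with 8.61, 8.71 and 9.27 on the CKO arrays, against 8.96, 8.97 and 8.44 on the Control arrays. Its groups overlapped and its difference was 0.07.

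Psmd8, a lid subunit, had 11.12, 11.43 and 10.55 on the CKO arrays, against 11.47, 11.48 and 11.48 on the Control arrays. Its Control values lay close together and above every CKO value, and the difference of -0.44 was -0.20 without CKO array F. Psmd7, which pairs with Psmd14 in the lid, had 10.99, 11.37 and 11.23 on the CKO arrays, against 11.34, 11.40 and 11.33 on the Control arrays. It differed by -0.16, by -0.061 without array D and by -0.0025 with the mean of its probes, and its other tested probes differed by -0.32 and 0.47. Psmd1, a scaffold of the base, had 12.24, 12.63 and 12.19 on the CKO arrays, against 12.19, 12.28 and 12.22 on the Control arrays. Array E set its difference of 0.13, which was -0.013 without E, and its other probes differed by 0.24 and -0.08. Psmd11, a lid subunit, had 8.21, 8.54 and 8.71 on the CKO arrays, against 8.29, 8.42 and 8.49 on the Control arrays. It differed by 0.08 and its other probe by -0.09. Psmd12 differed by -0.04 and its other probe by 0.05. Psmd2, Psmd3, Psmd4, Psmd6 and Psmd13 ran from -0.44 to 0.18 with groups that overlapped.

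The assembly chaperones build the rings and do not stay in the finished particle. All 5 found by symbol were tested, with a median difference of 0.13. Psmd5, a chaperone of the base, had log2 signals of 5.54, 8.03 and 8.16 on CKO arrays D, E and F, against 7.66, 7.68 and 8.05 on Control arrays A, B and C. Array D alone set it apart: the difference was -0.55 over all arrays and 0.30 without D. Psmd10 (gankyrin), another chaperone of the base, had 9.91, 10.31 and 10.56 on the CKO arrays, against 10.43, 10.32 and 10.51 on the Control arrays, and its 3 tested probes differed by -0.16 to -0.20. It too had its lowest value on D. Psmd9, also a chaperone of the base, had 6.47, 6.84 and 7.30 on the CKO arrays, against 6.80, 6.80 and 6.62 on the Control arrays. It differed by 0.13 and its other probe by -0.34. Psmg2 and Psmg3, which guide the assembly of the alpha ring, differed by 0.13 each. Psmg1 is on the array under the older symbol Dscr2, outside the rule, and differed by 0.09.

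Psme3, the nuclear activator ring that opens the core without ubiquitin, had log2 signals of 10.55, 10.20 and 10.13 on CKO arrays D, E and F, against 9.70, 9.93 and 9.94 on Control arrays A, B and C. Every CKO array lay above every Control array, by 0.44 (95% confidence interval -0.01 to 0.88), and Psme3 did not pass (limma adjusted p 0.976). Psme4, a single-chain activator, had 12.26, 12.18 and 12.10 on the CKO arrays, against 12.22, 12.07 and 12.33 on the Control arrays. Psmf1, known as an inhibitor of the core, had 10.88, 10.33 and 10.63 on the CKO arrays, against 10.58, 10.72 and 10.81 on the Control arrays. The groups of both overlapped, with differences of -0.03 and -0.09. Their other tested probes lay higher on every CKO array, by 0.38 for Psme4 and 0.32 for Psmf1. That of Psme4 was near background, with 2 of 3 Control arrays above it. Its lowest CKO value was 5.494 on array E, against a highest Control value of 5.485 on array C. Psmc3ip, a factor of meiotic recombination and not a proteasome subunit, was caught by its name and differed by 0.03.

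Genes for proteins that work with the proteasome, among them a lid subunit outside the naming rule, were read as well. Of 8 tested genes of this list 0 passed in either direction. Pomp, the maturation factor of the core, had log2 signals of 12.83, 13.15 and 13.00 on CKO arrays D, E and F, against 12.94, 12.86 and 12.89 on Control arrays A, B and C. Usp14, a deubiquitinase of the 19S particle, differed by -0.32, Sem1, a small lid subunit, by -0.13, and the ligase Ube3c by -0.12, which lay lower on every CKO array. Of 12 tested genes for ubiquitin and the factors that carry it 0 passed in either direction. Ubqln4, a shuttle that brings marked proteins to the proteasome, had 9.35, 9.36 and 9.09 on the CKO arrays, against 8.95, 8.82 and 8.45 on the Control arrays. It lay higher on every CKO array (difference 0.53, limma adjusted p 0.976). Nploc4 and Vcp, of the complex that extracts marked proteins, differed by 0.28 and 0.18, and the shuttle Ubqln1 by -0.13.

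Several proteasome genes had more than 1 probe, and the probes did not always rank the arrays alike. Among 20 genes with at least 2 tested probes, the probes of 11 differed in the sign of CKO minus Control. For each probe the deviation of an array from the mean of the other 5 was taken, and probes of a gene were called apart on an array when these deviations differed by more than 1 log2 unit. On CKO array D this held for Psmb7, Psmc4 and Psmd7, or 15% of the 20 genes, and for 0 genes on each other array. Over all 3759 genes with at least 2 tested probes it held for 17.4% on D and 6.68% on E, against 1.12% to 2.66% on the other 4 arrays. The other probes of these genes were chosen for mention after their values were seen. One of Psmd7 read 8.17 on D, and 10.27 and 10.05 on CKO arrays E and F, against 9.70, 9.86 and 9.88 on Control arrays A, B and C. The main probe of Psmd7 read 10.99 on D, also its lowest value, and 11.23 to 11.40 on the other arrays. The other probe of Psmc4 read 5.21 on D, and 7.11 and 6.25 on CKO arrays E and F, against 7.07, 7.27 and 6.95 on the Control arrays.

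**Figure D5:**
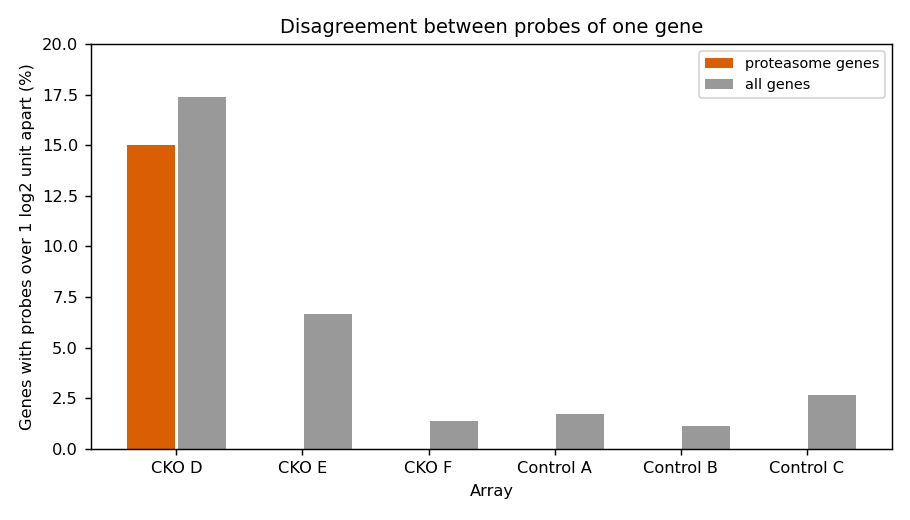
Percent of genes whose probes lay more than 1 log2 unit apart in their deviation on an array (y axis) for CKO arrays D, E and F and then Control arrays A, B and C, for 20 proteasome genes (orange) and 3759 genes (grey). Array D has the tallest bars of both kinds, 15% and 17.4%, and the proteasome genes stand at 0 on the other arrays.

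Of the 46 tested probes of those 20 genes, array D held the lowest value for 21 and lay more than 1 log2 unit below the others for 6. Each array was also left out in turn, and the counts of proteasome genes without overlap were read beside the shares of all genes, which rise because a group then holds 2 arrays. Without D all remaining CKO arrays lay above all Control arrays for 11 proteasome genes (26.8%), against 10.9% of all genes, and below for 5 (12.2%), against 13.5% of all genes. Array D was singled out after the low values of these same genes on it were seen, so the higher count without it follows in part from that choice and supports no direction. Without E the counts were 3 higher and 6 lower, where all genes gave 10.9% and 8.44%. Without F they were 3 higher and 4 lower, where all genes gave 11.5% and 10.4%. Without Control array A they were 2 higher and 4 lower, where all genes gave 11.5% and 11.3%. Without B they were 2 higher and 3 lower, where all genes gave 8.83% and 7.75%, and without C also 2 higher and 3 lower, where all genes gave 8.51% and 8.83%. The median difference of the proteasome genes was 0.10 without D and ran from -0.029 to 0.061 with any other array left out. With D left out none passed by limma's adjusted p. Its lowest value, 0.715, was shared by several genes, among them Psmd14, Psma4, Psmb7 and Psmb8.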

How the data were processed

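Per the file headers, the authors deposited 1 scanner table an array, with an intensity averaged over beads, a detection p-value and a bead count for 45281 probes. The intensity was linear, without background subtraction or normalisation. The authors also deposited processed intensity values. Their software was not given in the sources used here.

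Background was removed with neqc of limma 3.58.1 (R 4.3.3), which fits normexp to negative controls that it infers from the detection p-values, adds an offset of 16, equalises quantiles and takes log2. The offset understates differences of dim genes. A probe was kept if its detection p-value was below 0.05 on 3 or more of 6 arrays, and a gene was read from its brightest probe. CKO minus Control was tested two-sided with lmFit and eBayes, and p-values were adjusted by Benjamini-Hochberg over every gene tested. The limma fit was tested on simulated log2 values with known changes. Background removal, the filter and the choice of probe were not simulated.

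The genes and lists were chosen with earlier results of these data known. Values on every array were given for the immunoproteasome genes, Psmb5, Psmb6, Psmb7, genes whose groups did not overlap or whose probes disagreed in sign, and the 2 with the smallest p in each other class. Each related list gave up to 4 genes with the smallest p, plus Nfe2l1, Pomp, Tap1, Irf1 and Bmpr1a. Some genes of these lists are not reported here. Sequences came from RefSeq tables of GRCm38.p6.

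Alternatives for the background were normexp with an offset of 50 and no controls, or no correction. Those for the scale were median scaling, cyclic loess and the deposited values. The filter was dropped, or set to a detection p-value below 0.01 on every array. Probes of a gene were averaged, the variance was fitted with a trend and robustly, arrays were weighted, and each array was left out. Probe sequences and proteins were not used here.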

Additional observations from a re-analysis of the deposited data

How the results depend on the processing

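Of the proteasome genes 0 passed in either direction under any of the 10 alternatives or with any array left out; the lowest adjusted p was 0.214, for Psmd8 with array weights (limma), and over all genes 0 to 5 were called higher and 0 lower. Of the 41 tested proteasome genes, 14 kept the sign of their difference throughout, 21 under the 10 alternatives and 18 with each array left out. With median scaling the median of the 20S and 19S genes was -0.11, that of all genes -0.077, 1 gene lay higher and 6 lower without overlap, and the sign turned for Psma2 (-0.017), Psma7 (-0.033), Psmb6 (-0.018), Psmb8 (-0.080), Psmc1 (-0.033), Psmc3 (-0.016), Psmc5 (-0.082), Psmc3ip (-0.031), Psmd11 (-0.00069) and Psme1 (-0.031). With the mean of probes 1 gene lay higher and 1 lower without overlap, and the sign turned for Psma7 (-0.0028), Psmd9 (-0.10), Psmd11 (-0.0044), Psmd12 (0.0057), Psme4 (0.18) and Psmf1 (0.12). With array weights it turned for Psmb2 (0.078), Psmc5 (-0.17), Psmd1 (-0.022), Psmd2 (0.055), Psmd5 (0.13), Psmd10 (0.099) and Psme2 (0.20). With cyclic loess 1 gene lay higher without overlap, and with no background correction Psmb9 against Psmb6 was -0.0015. The causes were not tested. With each array left out in turn, genes without overlap numbered 2 to 11 higher and 3 to 6 lower, and the median of the 20S and 19S genes ran from -0.030 to 0.047. Psmb8 against Psmb5 then ran from -0.50 to 0.84, Psmb9 against Psmb6 from -0.38 to 0.42, and Psmb10 against Psmb7 from -0.11 to 0.39. The differences with a changed sign ran from -0.00042 to 0.14 for Psma7, -0.19 to 0.039 for Psmb5, -0.51 to 0.71 for Psmb8, -0.31 to 0.51 for Psmb9, -0.093 to 0.20 for Psmc3ip, -0.013 to 0.21 for Psmd1 and -1.01 to 0.30 for Psmd5. They ran from -0.085 to 0.33 for Psmd9, -0.31 to 0.012 for Psmd10, -0.029 to 0.22 for Psmd11, -0.055 to 0.15 for Psme1, -0.26 to 0.13 for Psme2, -0.093 to 0.036 for Psme4 and -0.22 to 0.052 for Psmf1. They ran from -0.082 to 0.00013 for Psmb1, -0.16 to 0.029 for Psmb2, -0.12 to 0.047 for Psmb3, -0.15 to 0.10 for Psmb4, -0.053 to 0.18 for Psmc1, -0.13 to 0.089 for Psmc5, -0.48 to 0.10 for Psmd2, -0.25 to 0.065 for Psmd6 and -0.0063 to 0.22 for Psmg2. No paired analysis was possible because the groups share no replicate letter. Signal over background limits Psmd3, above background on 2 of 3 CKO arrays, and the 6 genes below background on all arrays.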
